A study of Mus musculus with 18 samples.

Results

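The 9 genes described here, *Tdo2*, *Hpd*, *Hgd*, *Sds*, *Gldc*, *Hal*, *Prodh*, *Agxt* and *Bckdha*, encode liver enzymes that break down amino acids. They were chosen by gene symbol, which was matched to the Ensembl identifiers of the count files, and they are 9 of the 22524 genes listed there. All 9 had enough reads to be tested, among 13353 tested genes. Liver RNA was sequenced from 10 heterozygous *Rps2*-A226Y mice and from 8 wild-type mice, with 1 library per mouse. All mice were 15-month-old C57BL/6 females, and the WT controls carried the same CMV-Cre transgene as the mutants. *Rps2* encodes a protein of the small ribosomal subunit, and A226Y is a ribosomal ambiguity (*ram*) mutation, which lowers the accuracy of decoding. In the A226Y mice the CMV promoter drives Cre broadly, and Cre removes a STOP cassette between loxP sites only in part of the cells. Each A226Y liver is therefore a mosaic of cells with an expressed mutant allele and cells in which the floxed allele is still silent. The comparison asks which mRNAs differ between livers that carry this mutation and WT livers. The paper measured misreading in cultured cells and not in these livers. Cells with the silent floxed allele have 1 working *Rps2* copy, so the mutation and a lower *Rps2* level cannot be told apart here. The paper compared mice with only the floxed allele with their own wild types for this purpose, and those mice are not part of this comparison.

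The liver is the main organ that degrades amino acids, and most of these reactions take place in hepatocytes. Each amino acid has its own chain of enzymes, which removes the nitrogen and passes the carbon skeleton on to pyruvate, intermediates of the citric acid cycle, or ketone bodies. Several of these genes are known to be raised by glucocorticoids, glucagon and fasting, when amino acids serve as a source of glucose. *Tdo2* opens the breakdown of tryptophan, *Hpd* and *Hgd* act in the middle of tyrosine breakdown, and *Sds* turns serine into pyruvate. *Gldc* is the glycine-decarboxylating subunit of the mitochondrial glycine cleavage system. *Hal* opens histidine breakdown, *Prodh* opens proline breakdown, *Agxt* detoxifies glyoxylate in peroxisomes, and *Bckdha* is a subunit of the dehydrogenase complex that commits branched-chain amino acids to degradation.

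The libraries held between 23850565 and 62126131 counts in genes. Levels are given as CPM, the counts of a gene scaled to a common library size. In a principal component analysis of all tested genes, A226Y 29 and WT 33 lay apart from the other mice on the second component, at −61.1 and −31.8, where the others ranged from −12.8 to 17.4. Results are therefore also given without these 2 mice. *Rps2* itself had a median of 72.5 CPM in A226Y mice, with a highest value of 83.0, and a median of 109 CPM in WT mice, with a lowest value of 104. The genotypes did not overlap (log2 fold change −0.73, SE 0.11, edgeR adjusted p = 0.000772), and a count per gene does not separate the mutant from the normal allele. A gene was called changed where the adjusted p of edgeR's quasi-likelihood test, corrected over all tested genes, was under 0.05. Positive log2 fold changes mean more mRNA in A226Y. Nothing in the labels says that mice came from separate litters or cages. In whole liver, fewer cells of a type and less RNA per cell cannot be told apart.

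*Tdo2* and *Gldc* were higher in A226Y livers, by 1.46-fold and 1.44-fold, and *Prodh* was lower. The other 6 enzymes, *Hpd*, *Hgd*, *Sds*, *Hal*, *Agxt* and *Bckdha*, did not pass the test. Thus 3 of the 9 genes were called, against 14.3% of all tested genes. In the upward direction 2 were called, against 7.27% of all tested genes, and in the downward direction 1, against 7.03%. Without A226Y 29 and WT 33, the same 3 genes passed the test and *Bckdha* joined them as lower. A fit with 4 surrogate variables, which estimate hidden variation from the data, called 0 of the 9 enzymes and 248 of the 13353 tested genes. The log2 fold changes in that fit were 0.31 for *Tdo2*, 0.44 for *Gldc* and −0.34 for *Prodh* (edgeR adjusted p = 0.175, 0.139 and 0.172).

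**Figure D1:**
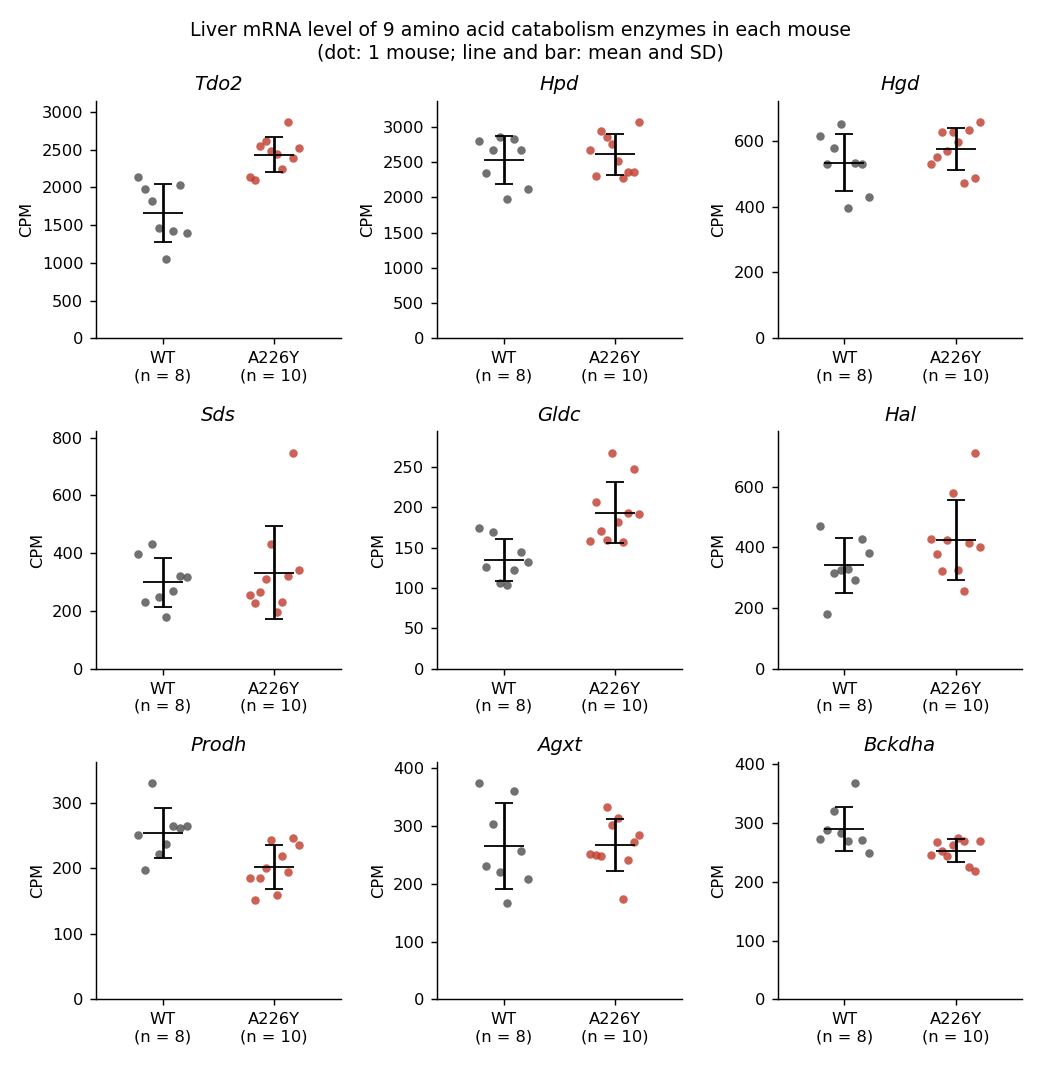
Level of the 9 enzymes in CPM (y axis, from 0) for 8 WT and 10 A226Y mice. Each dot is a mouse, and the line with its bar is the mean with the SD. The A226Y dots of *Tdo2* start at 2093 CPM, where the WT dots end at 2132 CPM, while the dots of *Hpd*, *Hgd* and *Agxt* overlap in large part between the genotypes.

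Tryptophan breakdown begins with tryptophan 2,3-dioxygenase, which *Tdo2* (chromosome 3, 81957090 to 81976202, minus strand, GRCm38) encodes. *Tdo2* ranged from 1051 through a median of 1643 to 2132 CPM in WT mice and from 2093 through 2464 to 2859 CPM in A226Y mice. In 9 of 10 A226Y mice the level was above that of every WT mouse, and 7 of 8 WT mice were below every A226Y mouse. The mean was 2432 ± 232 CPM (SD, n = 10) against 1661 ± 382 CPM (SD, n = 8), a 1.46-fold difference (log2 fold change 0.55, SE 0.12, edgeR adjusted p = 0.00556). A two-sided exact permutation test over the mice gave p = 9.1e-05.

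The 8 WT mice were not evenly spread. WT 4, 6 and 28 had *Tdo2* levels of 2132, 1981 and 2024 CPM, and the other 5 lay between 1051 and 1822 CPM. The same 3 mice had the lowest WT scores on the first principal component (5.08, −11.5 and 4.69), where the other WT mice lay between 21.9 and 39.0 and the A226Y mice between −26.5 and −0.383. The part of this component in the *Tdo2* result was not tested. Leaving out any of the 18 mice left *Tdo2* called, with log2 fold changes from 0.48 to 0.61, whereas 4 surrogate variables ended the call (0.31).

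Of 9 further tryptophan genes, 1 rose and 4 fell (11.1% and 44.4%, against 7.27% and 7.03% of all tested genes). *Acmsd*, whose enzyme diverts the kynurenine pathway away from NAD synthesis, rose to 20.9 ± 11.6 from 9.56 ± 3.48 CPM (log2 fold change 1.13, SE 0.29, edgeR adjusted p = 0.0144). *Ido2*, a second tryptophan dioxygenase gene, fell to 53.8 ± 10.4 from 85.4 ± 13.5 CPM (log2 fold change −0.67, SE 0.12, edgeR adjusted p = 0.00213). *Afmid*, which encodes the formamidase that follows the dioxygenase step, fell by 0.62 on the log2 scale, *Haao* fell by 0.36, and *Kyat3*, a kynurenine aminotransferase gene, fell by 0.35. The *Kyat3* call was lost without A226Y 11, 15, 18 or 23 or WT 13, 14 or 24. It was also lost with library sizes alone and with 4 surrogate variables. *Afmid* shares 1566 exon bases with the annotated gene *Gm20708* on the same strand, so its reads could be split and its value is uncertain. *Kmo*, *Kynu*, *Qprt* and *Kyat1* did not pass, with log2 fold changes of 0.02, 0.29, −0.04 and −0.09. *Kynu* was higher at an unadjusted p under 0.05. DESeq2, library sizes alone, a transcript length offset and the fit without WT 4 each called 2 of the 9 genes higher.

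Tyrosine is transaminated and then passes through 4-hydroxyphenylpyruvate dioxygenase (*Hpd*) and homogentisate 1,2-dioxygenase (*Hgd*). *Hpd* (chromosome 5, 123171807 to 123182727, minus strand) ranged from 1982 through 2668 to 2863 CPM in WT and from 2269 through 2601 to 3065 CPM in A226Y mice. The ranges overlapped in large part. Of the mutants 3 lay above every WT mouse, and 2 WT mice lay below every mutant. The log2 fold change was 0.05 (95% interval −0.14 to 0.23, edgeR adjusted p = 0.778). *Hgd* (chromosome 16, 37580153 to 37632020, plus strand) ranged from 396 through 532 to 652 CPM in WT and from 470 through 583 to 656 CPM in A226Y mice. A single A226Y mouse was above every WT mouse, 2 WT mice were below every A226Y mouse, and the log2 fold change was 0.11 (95% interval −0.09 to 0.31, edgeR adjusted p = 0.483).

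Around these 2 genes, *Tat*, the tyrosine aminotransferase gene that opens the pathway, rose to 3014 ± 1435 from 1669 ± 522 CPM (log2 fold change 0.85, SE 0.26, edgeR adjusted p = 0.0331). This call was lost when A226Y 7 or 32 or WT 14, 21, 24 or 33 was left out, and without A226Y 29 and WT 33 the log2 fold change was 0.67 (edgeR adjusted p = 0.0645). *Fah*, the gene of the last enzyme, fell by 0.24 on the log2 scale (SE 0.07, edgeR adjusted p = 0.0290), a call lost without WT 13, 14 or 24, with library sizes alone, with either offset (transcript length or GC content) and with 4 surrogate variables. *Pcbd1*, *Qdpr* and *Gstz1* did not pass, with log2 fold changes of −0.21, −0.06 and −0.18. *Tat*, like the called genes *Aass*, *Hao1*, *Ivd*, *Mccc1*, *Pcca* and *Asrgl1* below, falls outside the 20 other catabolic genes with the smallest adjusted p and was named after its value was seen.

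Serine dehydratase, the product of *Sds* (chromosome 5, 120476526 to 120483932, plus strand), ranged from 179 through 294 to 431 CPM in WT mice and from 195 through 288 to 747 CPM in A226Y mice. The highest value belonged to A226Y 29, and the medians differed little. The log2 fold change was 0.15 (95% interval −0.32 to 0.62, edgeR adjusted p = 0.699), and without A226Y 29 it was −0.06. *Sds* shares 360 exon bases with *Plbd2* on the opposite strand, which had 67.4% of the level of *Sds* in WT mice and a log2 fold change of 0.04. Strand use in counting is not given in the sources used here, so the level of *Sds* is uncertain. Its neighbour in function *Sdsl*, a serine dehydratase-like gene, rose to 33.4 ± 12.4 from 18.1 ± 4.61 CPM (log2 fold change 0.89, SE 0.20, edgeR adjusted p = 0.00801).

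*Gldc* (chromosome 19, 30098447 to 30175429, minus strand) ranged from 104 through 129 to 174 CPM in WT and from 157 through 187 to 267 CPM in A226Y mice. In 6 of 10 A226Y mice it exceeded every WT mouse, and all 10 were above the WT mean. The mean was 193 ± 37.8 CPM against 135 ± 26.5 CPM, a difference of 1.44-fold (log2 fold change 0.52, SE 0.12, edgeR adjusted p = 0.00995). A two-sided exact permutation test gave p = 0.000914. Leaving out any of the 18 mice kept *Gldc* called, with log2 fold changes from 0.46 to 0.58, whereas 4 surrogate variables ended the call (0.44).

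The glycine cleavage system has 4 subunits, of which the *Gldc* product is the P-protein. The genes of the other subunits did not pass the test. *Gcsh* (H-protein) had 79.8 ± 12.0 against 95.9 ± 7.89 CPM (log2 fold change −0.26, edgeR adjusted p = 0.0505), *Amt* (T-protein) had a log2 fold change of 0.06, and *Dld* (L-protein) of 0.13. Whether *Gldc* differed from them in its response was not tested. Of 12 further serine, threonine and glycine genes tested, *Sdsl* was called higher and 3 were called lower. These shares were 8.33% and 25.0%, against 7.27% and 7.03% of all tested genes. The lower genes were the serine hydroxymethyltransferases *Shmt1* (log2 fold change −0.39, SE 0.10, edgeR adjusted p = 0.0125) and *Shmt2* (−0.43, SE 0.07, edgeR adjusted p = 0.00159) and the sarcosine dehydrogenase gene *Sardh* (−0.57, SE 0.11, edgeR adjusted p = 0.00359). *Shmt2* had 150 ± 9.32 CPM in A226Y and 202 ± 26.1 CPM in WT mice, and *Sardh* had 769 ± 108 and 1144 ± 212 CPM. At an unadjusted p under 0.05, 5 genes of this list were lower, *Gcsh* and *Gcat* among them. DESeq2 and the fit without WT 6 each called 5 lower. In the fits without 1 mouse, 3 to 5 were called lower and 1 to 2 higher, and with 4 surrogate variables 0 were called.

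Histidase, the product of *Hal* (chromosome 10, 93488768 to 93519304, plus strand), releases ammonia from histidine. *Hal* ranged from 180 through 326 to 472 CPM in WT and from 256 through 407 to 711 CPM in A226Y mice. The groups overlapped, with 2 of 10 A226Y mice above every WT mouse, and A226Y 29 was again the highest. The log2 fold change was 0.32 (95% interval −0.07 to 0.70, edgeR adjusted p = 0.256). Without A226Y 29 and WT 33 it was 0.23. Of the 3 further genes of the histidine chain, *Uroc1*, *Amdhd1* and *Ftcd*, 0 passed the test by edgeR or by DESeq2, with log2 fold changes of −0.23, 0.15 and 0.03. At an unadjusted p under 0.05, 1 of them was lower.

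Proline dehydrogenase, which *Prodh* encodes (chromosome 16, 18060357 to 18090203, minus strand), starts proline oxidation at the inner mitochondrial membrane. *Prodh* ranged from 198 through 256 to 330 CPM in WT and from 151 through 198 to 246 CPM in A226Y mice. All 10 A226Y mice lay under the WT mean and 5 lay under every WT mouse, although the lowest WT mouse, WT 6, was near the A226Y median. The mean was 202 ± 33.4 CPM against 254 ± 38.7 CPM (log2 fold change −0.33, SE 0.11, edgeR adjusted p = 0.0414), and a two-sided exact permutation test gave p = 0.0075. This call was close to the threshold. It held in 6 of 18 fits that each left out 1 mouse, with adjusted p between 0.0182 and 0.0956, while the log2 fold change stayed between −0.38 and −0.27. It was lost when A226Y 3, 5, 7, 11, 18 or 23 or WT 4, 13, 21, 24, 28 or 33 was left out.

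The other called genes of this group were also lower. *Aldh4a1*, which encodes the dehydrogenase that completes the conversion of proline to glutamate, fell to 355 ± 42.8 from 509 ± 88.5 CPM (log2 fold change −0.52, SE 0.10, edgeR adjusted p = 0.00309). *Prodh2*, which acts on hydroxyproline, fell to 206 ± 27.6 from 280 ± 35.5 CPM (log2 fold change −0.45, SE 0.09, edgeR adjusted p = 0.00423). Both stayed called in each of the 18 fits without 1 mouse. *Aldh4a1* shares 1595 exon bases with the same-strand gene *Gm21969* and is uncertain for that reason. *Hoga1* and *Oat* did not pass, with log2 fold changes of −0.14 and 0.13.

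*Agxt* (chromosome 1, 93135240 to 93145421, plus strand) encodes alanine-glyoxylate aminotransferase. It ranged from 167 through 244 to 374 CPM in WT and from 173 through 262 to 333 CPM in A226Y mice, and the A226Y values lay within the WT range. The log2 fold change was 0.01 (95% interval −0.29 to 0.31, edgeR adjusted p = 0.967), so a difference of the size seen for *Tdo2* or *Gldc* lies outside the interval. Of 5 further genes of glyoxylate and alanine metabolism, *Agxt2*, a second glyoxylate aminotransferase gene, and *Hao1*, which encodes the oxidase that makes glyoxylate, fell, with log2 fold changes of −0.45 (edgeR adjusted p = 0.0306) and −0.49 (edgeR adjusted p = 0.0422). *Agxt2* lost its call when A226Y 7 or WT 13, 14, 21, 24 or 33 was left out, without A226Y 29 and WT 33, with a transcript length offset and with 4 surrogate variables. Among the 18 fits without 1 mouse, *Hao1* kept its call only without A226Y 5, 22 or 29 or WT 6, 24 or 28. It also lost its call with library sizes alone, no filter, a transcript length offset and 4 surrogate variables. *Grhpr*, *Gpt* and *Gpt2* did not pass. The share of this list called was 40.0%, against 14.3% of all tested genes.

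*Bckdha* (chromosome 7, 25629946 to 25658981, minus strand) encodes the E1 alpha subunit of the branched-chain ketoacid dehydrogenase. It ranged from 249 through 278 to 367 CPM in WT and from 219 through 258 to 275 CPM in A226Y mice. All 10 A226Y mice lay under the WT mean, and 4 lay under every WT mouse. The mean was 253 ± 19.5 against 290 ± 37.2 CPM (log2 fold change −0.20, SE 0.07, edgeR adjusted p = 0.0753), which did not pass the test over all genes. The two-sided exact permutation test for this gene alone gave p = 0.00891, uncorrected. With A226Y 29 and WT 33 left out, the log2 fold change was −0.20 and the edgeR adjusted p was 0.0469. *Bckdha* overlaps *B3gnt8* on the opposite strand, which reached only 0.285% of its level.

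Among 18 further branched-chain genes tested, 7 were called lower (38.9%, against 7.03% of all tested genes) and 0 higher by edgeR, and 17 of the 18 log2 fold changes were negative, with a median of −0.21. At an unadjusted p under 0.05, 9 were lower and 0 higher, and DESeq2 also called 7 lower and 0 higher. The median over all tested genes was −0.0044. *Bckdhb*, which encodes the E1 beta partner of *Bckdha*, fell to 90.7 ± 5.22 from 106 ± 11.1 CPM (log2 fold change −0.23, SE 0.06, edgeR adjusted p = 0.0159). *Hibadh* of valine breakdown fell to 221 ± 37.5 from 304 ± 54.1 CPM (log2 fold change −0.46, SE 0.12, edgeR adjusted p = 0.0156). *Ivd*, *Mccc1* and *Auh* of leucine breakdown and *Pcca* and *Pccb*, the propionyl-CoA carboxylase genes, fell by 0.29 to 0.32 on the log2 scale. *Dbt* (E2 subunit), *Bckdk* (the inhibiting kinase), *Ppm1k* (the activating phosphatase) and *Bcat2* did not pass, with log2 fold changes of −0.06, −0.07, −0.17 and −0.00.

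The number of branched-chain genes called lower depended on single mice. It ranged from 3 to 9 when 1 mouse was left out, being 3 without WT 14 and 4 without A226Y 7, 11 or 18 or WT 13, 21, 24 or 28. It was 8 without A226Y 29 and WT 33. The direction held, with a median between −0.23 and −0.15 in the fits without 1 mouse. With library sizes alone, no filter or a transcript length offset 4 were called lower, and with 4 surrogate variables 0 were, with a median of −0.12. The calls of *Mccc1* and *Pcca* each held in 5 of the 18 fits without 1 mouse, that of *Ivd* in 9 and that of *Auh* in 17. The *Bckdhb* call held in all 18 but was lost with a transcript length offset and with 4 surrogate variables.

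**Figure D2:**
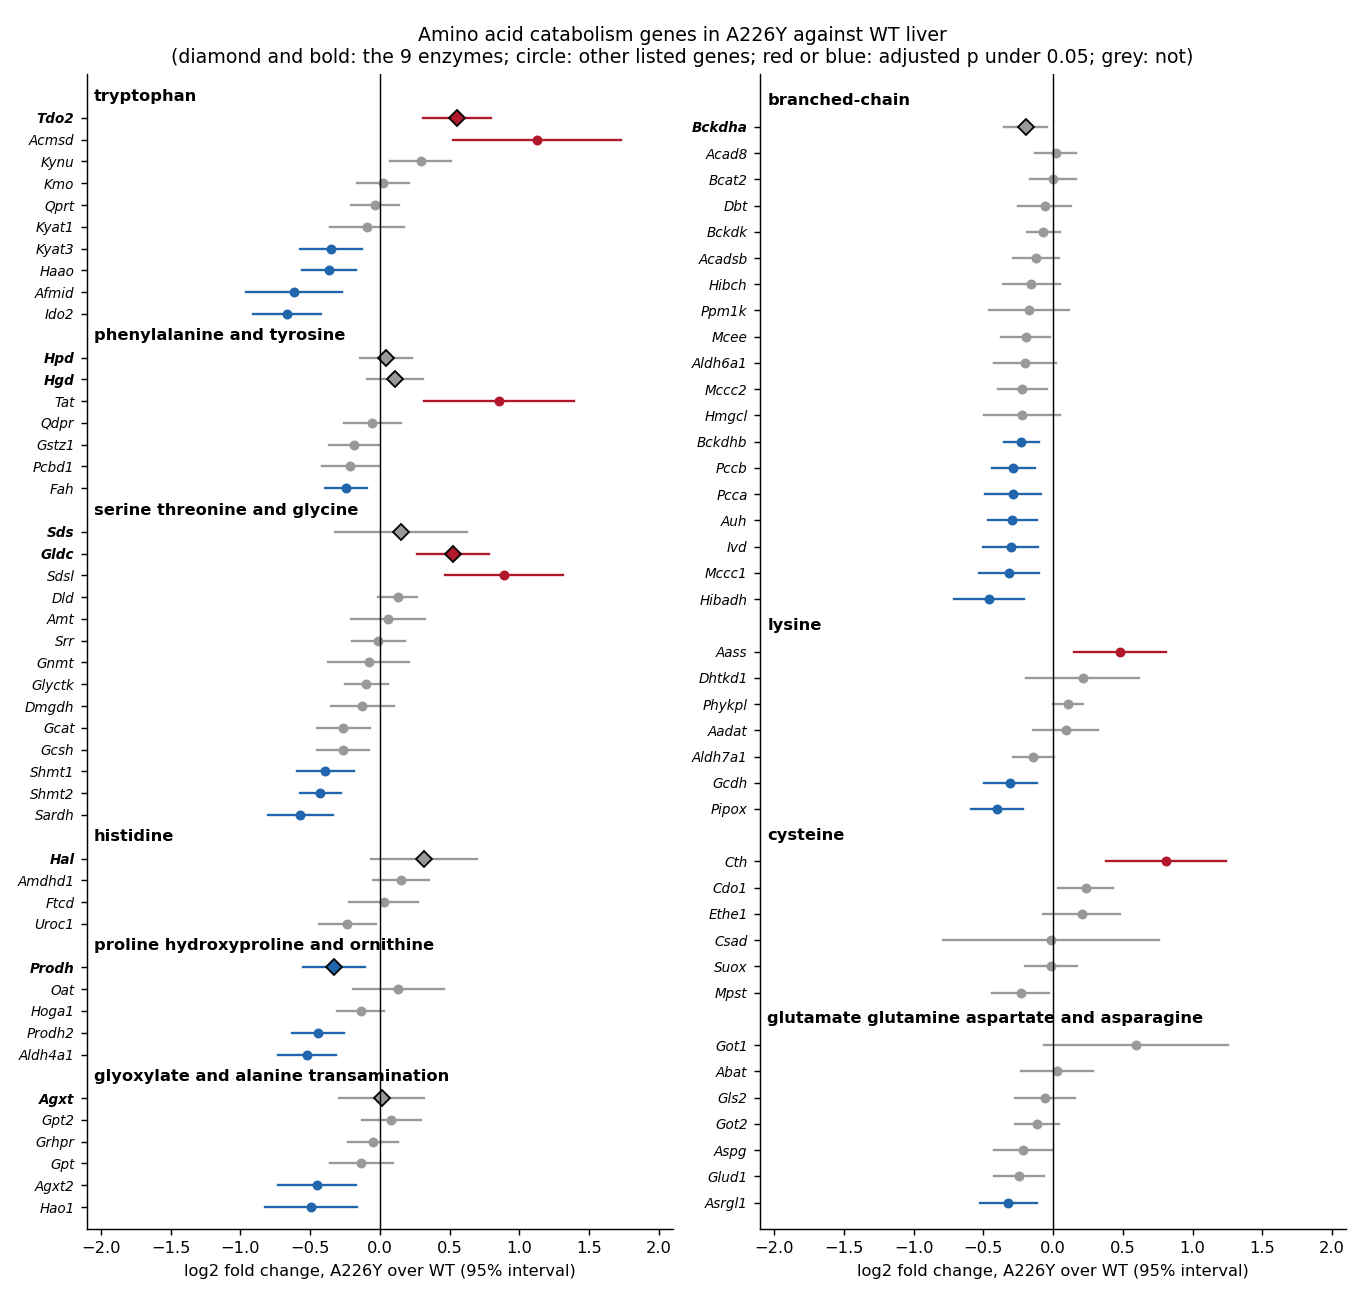
Log2 fold change of A226Y over WT (x axis) with its 95% interval for the 9 enzymes (diamonds) and other tested amino acid catabolism genes (circles), grouped by amino acid. Red and blue mark genes called higher and lower at an adjusted p under 0.05, and blue symbols outnumber red ones, with 22 lower and 5 higher among the circles.

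In all, 79 other genes of amino acid catabolism were listed and 77 could be tested. Of these, 5 were called higher and 22 lower, which is 35.1% of the list against 14.3% of all tested genes. The called share was 6.49% upward and 28.6% downward. The median log2 fold change was −0.13. Beside *Acmsd*, *Tat* and *Sdsl*, the genes that rose were *Cth*, which encodes the cystathionine gamma-lyase that makes cysteine (818 ± 263 against 467 ± 135 CPM, log2 fold change 0.81, SE 0.21, edgeR adjusted p = 0.0139), and *Aass*, which opens lysine breakdown (log2 fold change 0.48, SE 0.16, edgeR adjusted p = 0.0467). The *Aass* call held only when A226Y 3, 5, 18, 22 or 23 was the mouse left out, and without A226Y 29 and WT 33 its log2 fold change was 0.37 (edgeR adjusted p = 0.0627). In the lysine chain *Gcdh* and *Pipox* fell by 0.31 and 0.40 on the log2 scale, and among the glutamate and asparagine genes *Asrgl1* fell by 0.32. The *Gcdh* call held in 15 and the *Asrgl1* call in 10 of the 18 fits without 1 mouse. Both calls were lost with library sizes alone and with 4 surrogate variables, and that of *Gcdh* also with a transcript length or GC content offset. Of the 27 called genes, 15 kept their call in all 18 fits without 1 mouse and 12 lost it in at least 1. Exons of *Agxt2*, *Pcca* and *Shmt1* overlap those of *Gm21973*, *Ggact* and *Smcr8* by 155, 241 and 184 bases, so these 3 values are uncertain too. With 4 surrogate variables 0 of the 77 were higher and 2 lower (*Ido2* and *Pipox*). In that fit the log2 fold change of *Acmsd* was 0.42, that of *Cth* 0.42, that of *Sdsl* 0.50 and that of *Sardh* −0.31. The list count was 16 without WT 14, 17 without WT 13 and 17 without WT 24. With library sizes alone as the scale, 6 were higher and 14 lower, while over all tested genes the share of calls that were higher went from 50.8% to 68.0%.

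Compared per kilobase of exon, the 9 enzymes spanned a wide range of levels in WT liver. *Hpd* led with 1190 ± 161 CPM per kb and *Tdo2* followed with 428 ± 98.5 CPM per kb. *Hgd*, *Sds*, *Agxt* and *Bckdha* came next, at 204, 177, 156 and 153 CPM per kb, and these neighbours did not differ beyond their SD. *Hal* had 61.3 ± 16.1, *Prodh* 32.5 ± 4.96 and *Gldc* 22.1 ± 4.35 CPM per kb. Per kb, the order of the last pair differed between genotypes. *Prodh* was above *Gldc* in 8 of 8 WT mice but in only 1 of 10 A226Y mice. In A226Y mice the levels were 25.9 ± 4.28 and 31.7 ± 6.20 CPM per kb. This order depends on the exon lengths used, 7797 bases for *Prodh* and 6091 for *Gldc*, which join all annotated exons. Without division by length, *Prodh* had the higher mean in both genotypes. The means were 202 ± 33.4 against 193 ± 37.8 CPM in A226Y and 254 ± 38.7 against 135 ± 26.5 CPM in WT mice.

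The members also varied together between mice of the same genotype. After the genotype means were subtracted from log2 CPM, 31 of 36 pairs had a positive Pearson r over 18 mice and 10 were above 0.5, with a median of 0.36. *Hpd* and *Hgd*, which act in consecutive steps of tyrosine breakdown, had the highest value (r = 0.81), followed by *Sds* with *Gldc* (0.77), *Sds* with *Prodh* (0.74) and *Sds* with *Hal* (0.73). *Bckdha* stood apart over all mice, with r from −0.46 with *Hal* to 0.40 with *Hpd*. In WT mice alone it had r = 0.60 with *Agxt*, 0.53 with *Hpd* and −0.36 with *Hal*. In A226Y mice alone these were −0.05, 0.19 and −0.60. *Tdo2* with *Gldc* likewise had 0.76 in WT and 0.09 in A226Y mice. Whether r differs between genotypes was not tested. Without A226Y 29 and WT 33, *Hpd* with *Hgd* had r = 0.76, *Sds* with *Gldc* 0.77 and *Sds* with *Hal* 0.61. Other pairs moved more, and *Sds* went from 0.24 to 0.60 with *Hpd*, from 0.16 to 0.60 with *Hgd* and from 0.42 to 0.63 with *Tdo2*. Without these 2 mice 33 of 36 pairs were positive, 15 were above 0.5, and the median was 0.42. For the values without the 2 mice, the subtracted genotype means were still those of all 18 mice. An offset between genotypes can therefore remain in them. Points in such a correlation share library, scaling factor and RNA preparation, so it is given as a description.

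**Figure D3:**
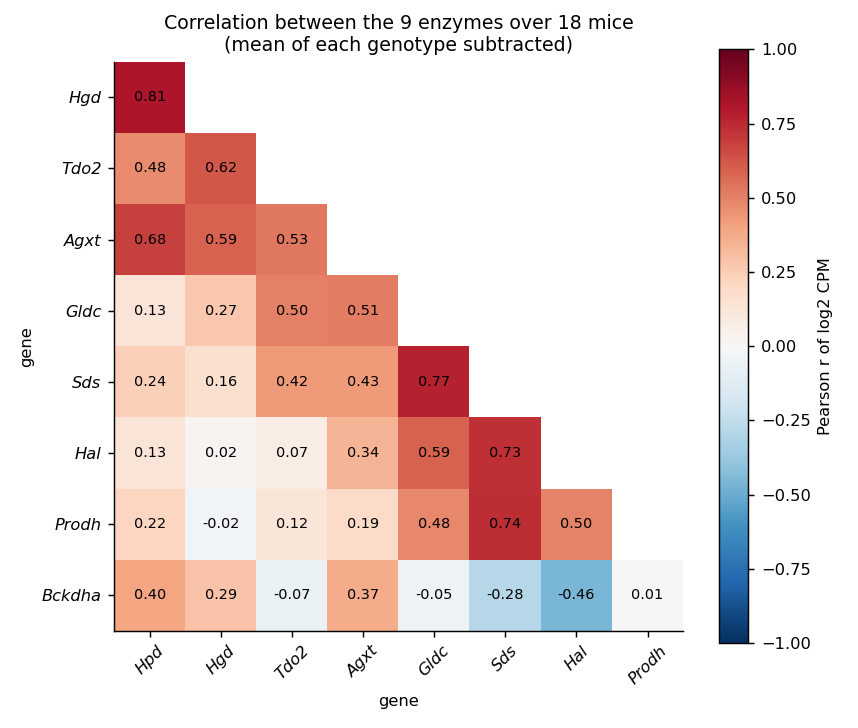
Pearson r of log2 CPM between the 9 enzymes over 18 mice after subtraction of each genotype's mean (colour scale from −1 to 1). *Hpd*, *Hgd*, *Tdo2* and *Agxt* have r between 0.48 and 0.81 with each other, *Sds*, *Gldc*, *Hal* and *Prodh* have r between 0.48 and 0.77, and the *Bckdha* row is pale or blue except with *Hpd*, *Agxt* and *Hgd*.

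The genes whose levels most resembled each called enzyme were found in the same way, out of 11940 that averaged 1 CPM or more. *Tdo2* was most like *Cbs* (r = 0.83), which encodes cystathionine beta-synthase, and then *Smim13* (0.82) and *Cdip1* (0.80). *Gldc* was most like *Sds*, *Asic1* (0.74) and *Spout1* (0.74). *Prodh* was most like *Gpt* (0.81), the alanine aminotransferase gene, *Rhobtb1* (0.80) and *Tomm40* (0.79). Of these 9 genes, *Smim13* was the only gene called between genotypes, with a log2 fold change of 0.59 (SE 0.11, edgeR adjusted p = 0.00282).

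The sequence upstream of the RefSeq start site is shown for *Gldc*, which was called higher, for *Prodh*, which was called lower, and for *Hgd* and *Hal*, which were not called. A promoter entry from RefSeq (GRCm38.p6) matched 8 of the 9 genes, and the window covered 250 bases before to 50 bases after the start. Only bases outside annotated exons are printed, which shortened the *Prodh* window to its 148 bases farthest from the RefSeq start. These lie inside the *Prodh* gene as GENCODE annotates it, since that gene begins further upstream, so they do not show the sequence before its annotated start. Each runs 5′ to 3′ along the gene. Capitals mark matches on either strand to TATAAA (the TATA box), TGTTCT (a glucocorticoid receptor half-site), TGACGTCA (the cAMP response element), AGGTCA (a nuclear receptor half-site) or TTGCGCAA (a C/EBP site).
*Gldc*, chr19:30175442-30175691, minus strand: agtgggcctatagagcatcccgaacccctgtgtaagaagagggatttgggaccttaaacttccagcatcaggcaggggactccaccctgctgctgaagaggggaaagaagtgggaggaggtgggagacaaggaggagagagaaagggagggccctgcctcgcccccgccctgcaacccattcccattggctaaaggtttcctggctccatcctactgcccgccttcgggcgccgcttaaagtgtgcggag
*Prodh*, chr16:18089293-18089440, minus strand: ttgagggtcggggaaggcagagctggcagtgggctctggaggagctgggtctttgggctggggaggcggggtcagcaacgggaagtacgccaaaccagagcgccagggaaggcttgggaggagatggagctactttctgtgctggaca
*Hgd*, chr16:37579903-37580152, plus strand: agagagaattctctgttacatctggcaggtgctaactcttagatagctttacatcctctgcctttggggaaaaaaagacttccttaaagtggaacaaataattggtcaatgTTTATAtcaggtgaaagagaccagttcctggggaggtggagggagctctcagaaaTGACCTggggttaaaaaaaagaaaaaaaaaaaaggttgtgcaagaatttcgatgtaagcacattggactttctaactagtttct
*Hal*, chr10:93488518-93488767, plus strand: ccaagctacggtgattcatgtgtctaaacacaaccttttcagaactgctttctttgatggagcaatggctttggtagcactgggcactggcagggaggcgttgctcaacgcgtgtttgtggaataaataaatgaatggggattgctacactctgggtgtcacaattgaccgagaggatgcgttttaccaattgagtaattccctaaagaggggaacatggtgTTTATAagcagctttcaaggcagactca

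The windows differed in base composition, with 59.6% G or C in *Gldc* and 62.8% in *Prodh* against 38.8% in *Hgd* and 45.6% in *Hal*. The capitals in *Hal* begin 28 bases before the start and are TATAAA on the opposite strand, and the first capitals in *Hgd*, also TATAAA on the opposite strand, begin 139 bases before it. The *Gldc* and *Prodh* windows held none of the 5 motifs. Over the full windows TATAAA was found in 3 of the 8 genes (*Tdo2*, *Hgd* and *Hal*) and in 14.2% of 27025 promoters, and AGGTCA in *Tdo2* and *Hgd* and in 16.0% of promoters. TGTTCT was found in *Agxt* and in 19.0% of promoters. TGACGTCA and TTGCGCAA were found in 0 of the 8 and in 1.88% and 0.185% of promoters. A match is a run of letters and does not show that a factor binds there.

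Of 10 genes that encode known regulators of these enzymes, 1 was called. *Ppargc1a*, the coactivator gene induced by fasting, rose to 22.2 ± 5.65 from 13.3 ± 3.27 CPM (log2 fold change 0.74, SE 0.16, edgeR adjusted p = 0.00539). *Klf15*, a regulator of amino acid catabolism, had a log2 fold change of 0.25 (edgeR adjusted p = 0.0619), *Cebpa* of −0.33 (0.0697 by the same test) and *Gcgr*, the glucagon receptor gene, of −0.21 (0.0676). *Nr3c1*, *Cebpb*, *Hnf4a*, *Foxo1* and *Ppara* had log2 fold changes between −0.13 and 0.08. DESeq2 called 2 of the 10 higher (*Ppargc1a* and *Klf15*) and 2 lower (*Cebpa* and *Gcgr*), leaving out both A226Y 29 and WT 33 gave 1 higher and 2 lower, and 4 surrogate variables gave 0. Of 6 glucocorticoid targets, *Sgk1* rose by 0.62 on the log2 scale and the others did not pass (16.7% called). One of the others, *Mt2*, a metallothionein gene (log2 fold change −0.66, edgeR adjusted p = 0.442), was called lower without A226Y 29, without A226Y 29 and WT 33, and by DESeq2, and 0 of the 6 were called with 4 surrogate variables.

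Genes that mark the fed and the fasted liver were read beside the enzymes. Of 6 genes high in the fed state, 3 fell, among them *Srebf1* and *Fasn*, with log2 fold changes of −1.22 and −0.68, and the summed level of the list was 267 to 604 CPM in A226Y and 408 to 801 CPM in WT mice. *Acacb*, an acetyl-CoA carboxylase gene, had the opposite sign (log2 fold change 0.40, 95% interval 0.09 to 0.71, edgeR adjusted p = 0.0717) and was called higher by DESeq2, with library sizes alone, with the GC content offset and without A226Y 5 or WT 13. Of 9 genes high in fasting, *Igfbp1* rose (log2 fold change 1.68, SE 0.49, edgeR adjusted p = 0.0283), a call lost without WT 13, 14 or 24, and the other 8 did not pass. The log2 fold change of *Igfbp1* was 1.05 without A226Y 29 and 1.21 without A226Y 29 and WT 33. All 9 log2 fold changes were positive, with a median of 0.30, and the summed level was 13040 to 21920 CPM in A226Y and 8239 to 16220 CPM in WT mice. When A226Y 29 and WT 33 were left out, *Fgf21*, *Igfbp1* and *Cyp4a14* were called higher, and 4 of the 6 fed genes lower. With 4 surrogate variables 0 of the fed genes were called and *Igfbp1* lost its call. Their part in the *Tdo2* and *Gldc* results was not tested.

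Markers of cell types and zones were read in the same fit, which called 14.3% of all tested genes. Of 7 hepatocyte markers, *Cps1* and *Apob* rose and the list summed to 74940 to 146200 CPM in A226Y and 88880 to 179100 CPM in WT mice, so hepatocyte mRNA was abundant in every library. Of 7 periportal markers *Cdh1* rose and *Cyp2f2* fell, and of 9 pericentral markers *Cyp1a2* and *Rhbg* fell. Of 6 Kupffer cell markers *Clec4f* fell, and the list summed to 263 to 1043 CPM in A226Y and 396 to 810 CPM in WT mice. Without A226Y 29, and without A226Y 29 and WT 33, 4 of the 6 were called lower (*Clec4f*, *Vsig4*, *Cd5l* and *Csf1r*), with list medians of −0.59 and −0.50. Of 7 stellate cell markers *Col1a1* and *Col1a2* fell, with sums of 305 to 366 and 294 to 374 CPM. In the fits without 1 mouse, *Apob* was called in 10 of 18 and *Col1a2* in 6 of 18. By edgeR and by DESeq2, 0 of 7 lymphocyte, 0 of 5 endothelial and 0 of 5 tested cholangiocyte markers were called, and 0, 1 and 1 of them had an unadjusted p under 0.05. The sums of these lists overlapped between genotypes. All 7 lymphocyte log2 fold changes were negative and all 5 cholangiocyte ones were positive. With 4 surrogate variables 1 cholangiocyte marker was called higher, and *Clec4f* stayed called lower. The calls of *Cps1*, *Apob*, *Cdh1*, *Cyp2f2*, *Cyp1a2*, *Rhbg*, *Col1a1* and *Col1a2* were lost in that fit. The part of cell composition in the enzyme results was not tested.

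**Figure D4:**
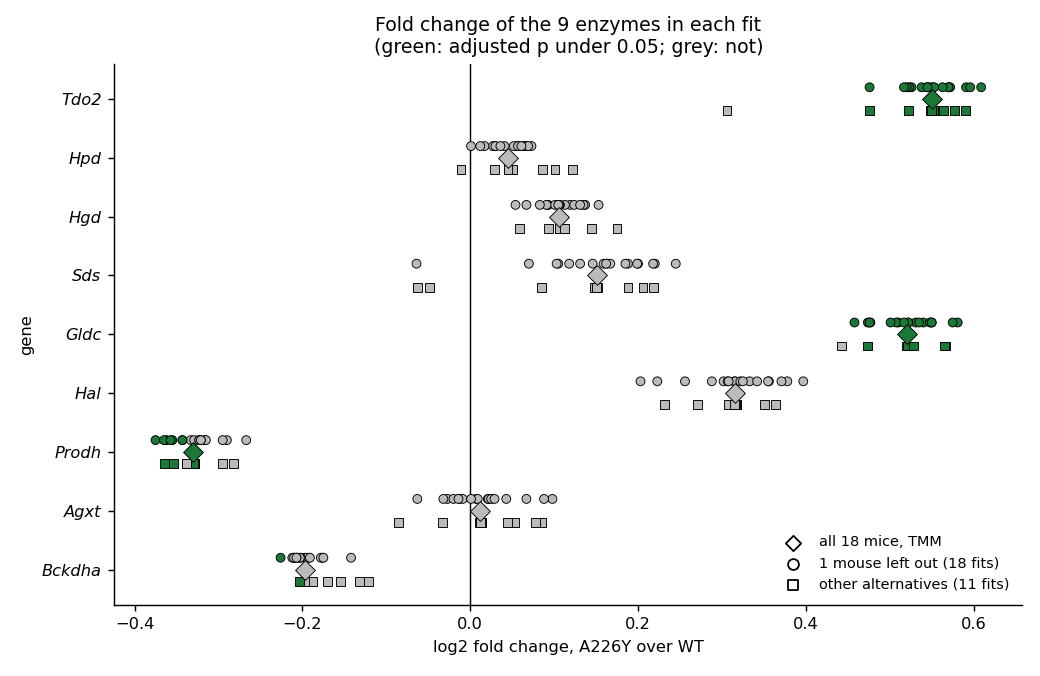
Log2 fold change of A226Y over WT (x axis) for each enzyme in the fit with all 18 mice (diamond), in 18 fits that each leave out 1 mouse (circles) and in 11 fits with another processing choice (squares). Green marks an adjusted p under 0.05. *Tdo2* and *Gldc* are green in every fit but 1, *Prodh* is mixed, and *Agxt* and *Sds* have points on both sides of 0.

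*Tdo2* and *Gldc* were called in 10 of 11 other processing choices, the exception being the 4 surrogate variables. *Prodh* was called in 7 of 11.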

How the data were processed

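Liver RNA of 18 mice was sequenced as single 50-base reads on an Illumina HiSeq instrument. The deposited files hold whole-number counts per Ensembl gene. The authors' methods name RSEM with Ensembl 75 and GRCm37, whereas the submitters' processing notes list bcl2fastq, MultiQC, fastp, STAR, featureCounts and GRCm38; which of these made the counts is not given in the sources used here. Coordinates, exon lengths and symbols came from GENCODE M21 (GRCm38), which matched 22291 of 22524 identifiers. Counts were fitted with edgeR 4.0.16 (R 4.3.3), using TMM scaling and the quasi-likelihood test of A226Y against WT without covariates. Genes needed 10 counts in 50% of the mice of a genotype. P-values were Benjamini-Hochberg adjusted over all 13353 tested genes, and the SE was derived from the F statistic. CPM are TMM-scaled, and log2 CPM used a prior count of 2. Exact permutation tests ran over all divisions of the mice (scipy 1.17.1). Surrogate variables came from sva 3.50.0. Other fits used DESeq2 1.42.0 and limma 3.58.1. Scripts were tested on simulated counts. No libraries agreed within sampling noise (lowest chi-square per degree of freedom of a same-genotype pair 20.1).

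Named genes are the 9 enzymes, the 20 other catabolic genes with the smallest adjusted p under 0.05, the 3 genes most like each called enzyme, the regulators and *Rps2*. Remaining list genes are named to complete a pathway or marker list. The enzymes and lists were chosen with earlier results of these data known. Of 173 list entries, 1 (*Mmut*) was not matched. Single values of some listed genes are not reported here, although the counts cover the whole lists.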

Additional observations from a re-analysis of the deposited data

Results flagged for a closer look

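In 9 of 58 groups of mice (a gene in a genotype), the lowest or highest mouse lay far from the others by Dixon's test on log2 CPM at its 95% critical value, and chance alone flags about 1 in 20 groups. Among the 9 enzymes this was so for *Agxt*, where A226Y 22 was lowest at 173 CPM and the next A226Y mouse had 241 CPM. A226Y 29 was the lowest A226Y mouse for 7 of the flagged genes, with 168 CPM of *Pipox*, 135 CPM of *Hibadh*, 44.0 CPM of *Afmid*, 26.2 CPM of *Auh*, 358 CPM of *Gcdh*, 414 CPM of *Fah* and 50.6 CPM of *Agxt2*. All 7 genes were called lower in A226Y, and without A226Y 29 and WT 33 the call was lost for *Agxt2* (log2 fold change -0.34, edgeR adjusted p = 0.0533) and held for the other 6. WT 33 was the lowest WT mouse for *Kyat3*, at 193 CPM against 258 CPM in the next.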

How the results depend on the processing

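With 4 surrogate variables, 248 genes were called in place of 1910, 0 of the 9 enzymes in place of 3 (edgeR adjusted p = 0.175 for *Tdo2*, 0.139 for *Gldc* and 0.172 for *Prodh*) and 2 other catabolic genes in place of 27. The log2 fold changes of *Hpd*, *Sds* and *Agxt* were then -0.011, -0.063 and -0.085. All 20 named catabolic genes kept their sign in that fit, and the cause of the lost calls was not tested. *Prodh* also lost its call with library sizes alone, no filter or a GC offset (edgeR adjusted p = 0.0822, 0.0507 and 0.0636). *Bckdha* was called by DESeq2. In the fits without 1 mouse, 1255 to 2560 genes were called, the lowest without WT 14, along with 16 to 32 other catabolic genes and 2 to 3 enzymes. In these fits *Agxt* ranged from -0.063 to 0.098 and *Sds* from -0.064 to 0.245. Without A226Y 29 and WT 33 together, a choice made after seeing the data, *Sds* was -0.049 and *Agxt* -0.033. No paired analysis was possible because the labels record no litter or other pairing of the mice. The lowest count of any enzyme in any mouse was 2708, for *Gldc*.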
